A study of Homo sapiens and Mus musculus with 74 samples.

Results

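The mRNA response to loss of Rpl41 was compared between kidney and brain of the mouse. The comparison used the 12 poly(A) RNA-seq libraries of these organs, chosen by assay, tissue and genotype out of 74 samples in the series, in 4 groups of 3 (WT kidney, KO kidney, WT brain and KO brain). The KO mice are homozygous for a CRISPR-Cas9 deletion of the entire Rpl41 coding sequence made in C57BL/6J zygotes, and the WT mice carry the intact gene. The deletion is constitutive, so every cell of each organ lacked the gene throughout life and a response that began in another organ cannot be told apart from a local one. The study's methods give 10-week-old males for the ribosome footprinting of these organs. The labels give tissue, genotype and a replicate number, and do not say whether libraries of one group come from separate mice or whether kidney and brain with the same number come from the same mouse, so p-values measure the spread between these libraries.

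RPL41 is a short, strongly basic ribosomal peptide at the interface of the subunits, named for the large subunit and now assigned to the small one. Because every cell needs ribosomes, its loss can be read in organs of very different makeup. The kidney is built mainly of tubule epithelium that reabsorbs the filtrate made in the glomeruli, where podocytes and a fenestrated endothelium form the filter, while the brain is built of neurons and glia served by vessels with a tight endothelium. Both organs share arterial smooth muscle, pericytes, endothelium and a collagenous matrix, so genes of the vessel wall can be followed in both.

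Each gene was represented by the coding transcript with the longest protein. Totals over these transcripts ranged from 16051295 to 20425708 counts in the kidney libraries and from 27424267 to 39205193 in the brain libraries. Levels of single genes are CPM, counts scaled to a common library size, after scaling within each tissue. Summed levels of marker lists are CPM from the library totals alone. Neuron markers (18 genes) summed to 9259.9 to 9845 CPM in WT brain and 7.54 to 11.4 CPM in WT kidney, and proximal tubule markers (24 genes) to 50330.5 to 68141 CPM in WT kidney and 110.0 to 126 CPM in WT brain, and the KO libraries had the same order (9811 to 10495 against 7.05 to 10.5 CPM, and 61342 to 67595 against 114 to 117 CPM), so each library matched its tissue label. Some libraries stood apart. KO kidney 2 and 3 had 1.76% and 1.67% of their counts on mitochondrial rRNA against 0.380% to 0.962% in the other libraries, and 83287 and 86071 transcripts with a count against 91222 to 93091 in the other kidney libraries, while KO kidney 1 lay nearer the WT kidneys in many gene lists. WT brain 3 held 2455 CPM of 7 pituitary hormone genes against 4.18 to 21.8 CPM in the other brain libraries, and WT brain 2 held 7676 CPM of 10 haemoglobin and red cell genes against 1549.9 to 2780.5 CPM in the other brain libraries.

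Rpl41 (chr10:128548114-128549305, minus strand, GRCm38) was lost from every KO library in both organs. Its reading frame of 78 bases, split over exons within chr10:128548387-128548960, is shown because it is the sequence that the KO mice lack. It encodes 25 residues in 3 of the 4 coding transcripts of the annotation (GENCODE M21, sequence from GRCm38.p6), and is written 5′ to 3′ along the minus strand with start and stop codons in capitals.
Rpl41 reading frame: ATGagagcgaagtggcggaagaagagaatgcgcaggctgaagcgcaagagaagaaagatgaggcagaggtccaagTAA
The counts below are those of the other coding transcript, whose frame of 46 residues is the longest. Rpl41 was at 313, 382 and 224 CPM in WT kidney and 0.147, 0.178 and 0.497 CPM in KO kidney, and at 393, 407 and 308 CPM in WT brain and 0.174, 0.439 and 0.220 CPM in KO brain. The KO values rest on 3 to 8 counts in kidney and 6 to 12 counts in brain. The log2 fold change was -10.15 (SE 0.37) in kidney and -10.42 (SE 0.25) in brain, with adjusted p = 2.09e-06 and 5.60e-08 (edgeR quasi-likelihood test, Benjamini-Hochberg), and the kidney minus brain difference of 0.26 (SE 0.66) was within its error. All 6 KO libraries matched their label.

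Beyond Rpl41, few single genes passed the test across all genes. In each organ on its own, Rpl41 was the 1 gene called at an adjusted p under 0.05, that is 0.00719% of the 13906 genes tested in kidney and 0.00636% of the 15731 tested in brain. The unadjusted p was under 0.05 for 2517 genes in kidney (18.1%) and 1143 in brain (7.27%). The tissue by genotype term, which asks whether the kidney log2 fold change differs from the brain log2 fold change, called 0 of 16462 genes (0.0%) with edgeR, with 1864 genes (11.3%) at an unadjusted p under 0.05 and a lowest adjusted p of 0.171. DESeq2 called 143 genes for this term, 340 in kidney and 36 in brain. Without KO kidney 1, the edgeR test called 660 genes for the term and 1576 in kidney. Its count for the term was also 10 without WT kidney 3. The mean of both tissue effects called 4 genes (0.0243%), all lower in KO: Rpl41, the smooth muscle genes Myh11 and Acta2, and the calcium channel gene Ryr2. All KO libraries lay clear of all WT libraries for 1562 genes above (9.49%) and 1535 below (9.32%) in kidney, and for 1040 above (6.32%) and 1096 below (6.66%) in brain. The median absolute log2 fold change was 0.230 in kidney and 0.108 in brain, while the biological coefficient of variation was 0.203 in kidney and 0.136 in brain.

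The log2 fold changes of the organs were weakly related across genes, and the strength of the relation rested on single brain libraries. Across 12193 genes with at least 1 CPM in each tissue Pearson's r between kidney and brain was 0.218 (Spearman's rho 0.212), and 6920 genes (56.8%) had the same sign. These values describe genes within the same libraries, and r was 0.0573 without WT brain 3, 0.0882 without KO brain 2 and 0.348 without KO brain 1. Of 2290 genes with an unadjusted p under 0.05 in kidney, 1566 (68.4%) had the same sign in brain. Of 903 genes with such a p in brain, 533 (59.0%) had the same sign in kidney. In both organs with the same sign, 135 genes had a p under 0.05, which is 5.90% of the 2290 kidney genes and 15.0% of the 903 brain genes, against 34 with opposite signs. By position alone, all KO libraries lay above all WT libraries in both organs for 117 genes (0.711% of those tested), below in both for 150 (0.911%) and on opposite sides for 132 (0.802%). With DESeq2 size factors the split was 151 above and 130 below, and with a single TMM scaling over the 12 libraries 99 above and 169 below, so the excess of shared lower genes depends on the scaling.

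**Figure D1:**
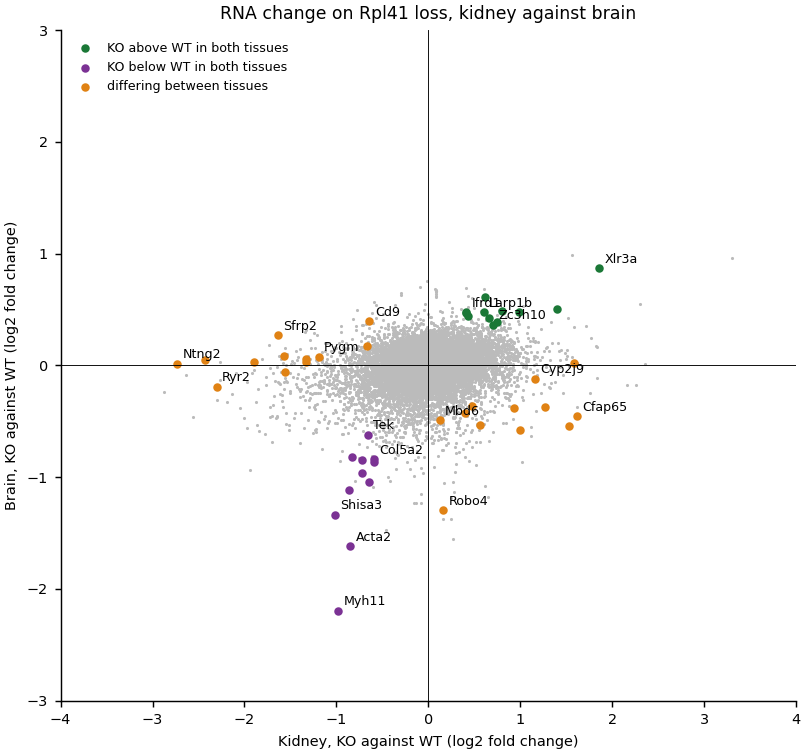
Log2 fold changes of KO against WT in kidney (x axis) and brain (y axis) for genes with at least 1 CPM in each tissue. Each point is a gene, and the genes selected as shared or differing are coloured, some with their symbol. Myh11 (-0.98 in kidney, -2.19 in brain) and Acta2 (-0.85 and -1.62) lie in the lower left quadrant, and the kidney values spread more widely than the brain values.

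The smooth muscle genes Myh11 and Acta2 were lower in KO in the mean over both organs. Myh11, the smooth muscle myosin heavy chain, was at 29.7, 33.2 and 22.6 CPM in WT kidney and 10.9, 15.7 and 17.1 CPM in KO kidney, and at 9.54, 7.90 and 7.28 CPM in WT brain and 2.71, 1.24 and 1.32 CPM in KO brain. The ranges of WT and KO did not overlap in either organ. Its log2 fold change was -0.98 (SE 0.21) in kidney and -2.19 (SE 0.28) in brain, and its mean effect passed the test with adjusted p = 0.0103. Acta2, the smooth muscle actin, was at 58.8, 58.8 and 41.3 CPM in WT kidney and 28.4, 31.6 and 28.8 CPM in KO kidney, and at 17.0, 13.1 and 7.87 CPM in WT brain and 5.36, 3.33 and 3.53 CPM in KO brain. Its log2 fold change was -0.85 (SE 0.16) in kidney and -1.62 (SE 0.28) in brain (mean effect, adjusted p = 0.0373). Both values were further below 0 in brain, but the difference between tissues did not pass (adjusted p = 0.347 and 0.438). Pln, which encodes phospholamban, an inhibitor of the calcium pump of the muscle reticulum, was at 2.55 to 3.11 CPM in WT and 0.808 to 1.96 CPM in KO kidney and 2.06 to 3.61 CPM in WT and 0.845 to 1.69 CPM in KO brain, again without overlap, but its mean effect did not pass (adjusted p = 0.163). The Myh11 call held under 21 of 25 alternatives and was lost without WT brain 1, KO brain 2 or KO brain 3, or without both KO kidney 2 and 3 (adjusted p up to 0.0609). The Acta2 call held under 14 of 25 (adjusted p up to 0.367) and was lost without any 1 of WT kidney 1 or 2, KO kidney 2 or 3, WT brain 1 or 2 and KO brain 2 or 3, or without both KO kidney 2 and 3. It was also lost with kidney and brain libraries of one number as a replicate block (limma voom, adjusted p = 0.0946) and with quality weights per group (adjusted p = 0.0755). Without KO kidney 1, the mean effect was called for 18 of the 23 shared genes selected besides Rpl41 and 1385 of all 16777 genes. Not all of the 23 are described here. They were picked for lying clear of WT in these same libraries, so these calls add no support.

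Further genes of the vessel wall and its matrix lay below WT in all 6 KO libraries, none of them past the test for the mean effect (adjusted p 0.113 to 0.167). Tek, the angiopoietin receptor of endothelial cells, was at 43.9, 48.1 and 50.0 CPM in WT kidney and 32.4, 26.0 and 31.9 CPM in KO kidney, and at 12.8, 11.1 and 14.1 CPM in WT brain and 10.9, 7.09 and 6.54 CPM in KO brain, a log2 fold change of -0.66 (SE 0.14) and -0.62 (SE 0.20). Sox17, a transcription factor of arterial endothelium, had log2 fold changes of -0.59 (SE 0.25) and -0.86 (SE 0.19). The matrix genes followed. Tinagl1, a secreted matrix protein, was at 32.5 to 49.3 CPM in WT and 18.0 to 31.5 CPM in KO kidney and 6.50 to 8.45 CPM in WT and 3.04 to 5.26 CPM in KO brain. Col5a2, a fibrillar collagen chain, had log2 fold changes of -0.59 (SE 0.18) and -0.84 (SE 0.22), and Col4a6, a basement membrane collagen chain, -0.72 (SE 0.38) and -0.97 (SE 0.27). The other named genes of the direction were Shisa3 (-1.02 in kidney and -1.34 in brain), the betaine and GABA transporter gene Slc6a12 (-0.72 and -0.85) and the helicase gene Helz2 (-0.65 and -1.04). WT and KO ranges were apart for each of these genes, but with 3 libraries a group and 0.911% of all genes in the same position this describes the libraries and is not a call.

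The genes higher in KO in both organs were of mixed function and none passed the test for the mean effect (adjusted p 0.0845 to 0.215 over the 12 selected, of which some are described). Ifrd1, an interferon-related developmental regulator, was at 17.4, 18.7 and 18.2 CPM in WT kidney and 24.8, 22.8 and 25.2 CPM in KO kidney, and at 35.4, 39.4 and 39.0 CPM in WT brain and 51.3, 57.2 and 50.0 CPM in KO brain, a log2 fold change of 0.41 (SE 0.14) and 0.48 (SE 0.10). Spr, the last enzyme of tetrahydrobiopterin synthesis, had 0.44 (SE 0.12) in kidney and 0.44 (SE 0.13) in brain. Larp1b, a La-related RNA-binding protein, was at 69.7 to 102 CPM in WT and 111 to 155 CPM in KO kidney and 12.4 to 13.4 CPM in WT and 16.1 to 20.4 CPM in KO brain. For these 3 genes the kidney and brain values lay within 1 SE of each other. Paox, a polyamine oxidase, had 0.75 (SE 0.25) and 0.39 (SE 0.13). Mrps28, a protein of the mitochondrial ribosome, had 0.42 (SE 0.15) and 0.47 (SE 0.14). Xlr3a, an X-linked gene of a family with near-identical copies whose reads the counting could share among them, had the largest kidney value of the set, 1.86 (SE 0.47) against 0.87 (SE 0.31) in brain. Zc3h10, a zinc finger gene (chr10:128541963-128547774), lies on the same strand as Rpl41 with 339 bases between them, so it sits directly downstream of the deleted gene. It was at 11.9, 14.7 and 11.0 CPM in WT kidney and 19.6, 22.7 and 19.3 CPM in KO kidney, and at 13.9, 13.5 and 13.8 CPM in WT brain and 16.8, 17.6 and 18.8 CPM in KO brain. Its log2 fold change was 0.70 (SE 0.17) in kidney and 0.36 (SE 0.10) in brain.

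**Figure D2:**
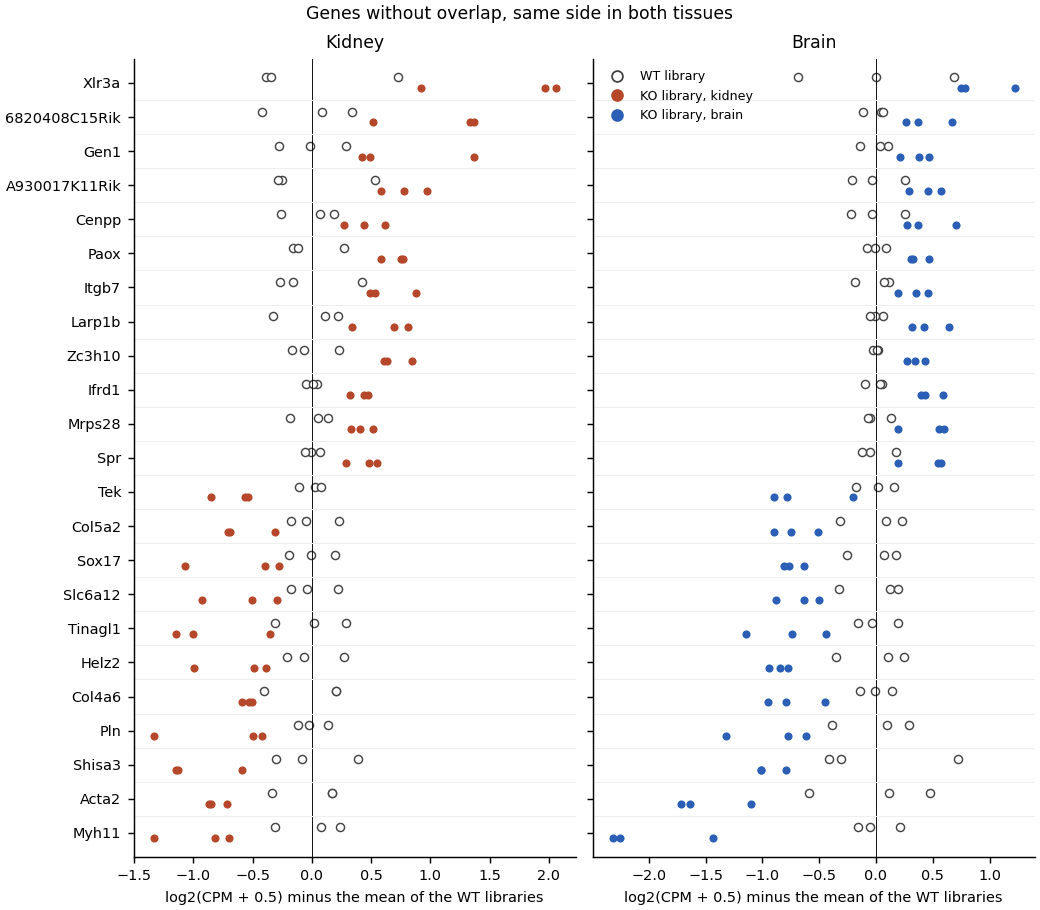
Level of the selected shared genes in each library, as log2(CPM + 0.5) minus the mean of the WT libraries of the organ. Each row is a gene, open circles are WT and filled circles KO libraries, and the x axes of the kidney and brain panels have different ranges. The KO circles of Myh11, Acta2 and Tek lie below all WT circles in both panels, and those of Ifrd1, Spr and Zc3h10 above them.

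The lists of vessel and matrix genes overlap the genes above, with Tek in the endothelial list. Those genes were picked for lying below WT in both organs, so the list counts in both organs add no separate support. Of 14 endothelial genes tested, 10 had a negative log2 fold change in both organs, with medians of -0.48 in kidney and -0.64 in brain against -0.01 and 0.00 over all genes tested. All KO libraries lay below WT for 7 of them in kidney, 5 in brain and 2 in both, a position held by 9.32%, 6.66% and 0.911% of all genes. Their summed level was 679.5 to 800.0 CPM in WT kidney and 533 to 615 CPM in KO kidney, and 242 to 317 CPM in WT brain and 205 to 268 CPM in KO brain. In bulk RNA, fewer cells of a type and less RNA per cell cannot be told apart. Cdh5, which encodes VE-cadherin, had -0.57 (SE 0.26) and -0.70 (SE 0.23), and Kdr, the main VEGF receptor, -0.47 (SE 0.14) and -0.67 (SE 0.29). Vwf, the clotting factor stored in endothelial cells, had -0.80 (SE 0.39) and -1.03 (SE 0.23). In brain the list's level was lower in KO brain 2 and 3 (medians of -0.87 and -0.77 on the log2 scale against the WT mean) than in KO brain 1 (-0.17), which lay above WT brain 2 (-0.27). The brain median was -0.77 without WT brain 2, the library rich in haemoglobin RNA, and -0.56 without WT brain 3, the library with pituitary RNA. The kidney median was -0.30 without KO kidney 2 and 3 and -0.56 without KO kidney 1.

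Collagen genes had similar medians in both organs. All 17 genes of a list of fibrillar and network collagens, which does not hold the fibrillar Col27a1 described further on, had a negative log2 fold change in kidney and 16 of 17 in brain, with medians of -0.37 and -0.36. KO lay below WT without overlap for 6 genes in kidney, 6 in brain and 2 in both (9.32%, 6.66% and 0.911% of all genes). Col18a1, the basement membrane collagen from which endostatin is cut, was at 68.4, 75.4 and 78.8 CPM in WT kidney and 55.8, 40.2 and 49.3 CPM in KO kidney, a log2 fold change of -0.62 (SE 0.15). Col5a1, a fibrillar chain, was at 24.6, 18.5 and 28.5 CPM in WT brain and 14.9, 12.4 and 13.0 CPM in KO brain, a log2 fold change of -0.83 (SE 0.16). The kidney value was clear of WT for the first gene and the brain value for the second. Of 13 markers of fibroblasts and pericytes, 10 were negative in both organs (medians -0.42 and -0.19), and the 3 below WT in both (0.911% of all genes) included Myh11 and Acta2, which belong to this list. Rgs5, a pericyte gene, was at 65.1, 70.0 and 75.0 CPM in WT kidney and 43.5, 37.2 and 36.9 CPM in KO kidney, a log2 fold change of -0.84 (SE 0.13), and in brain its value was -0.17 (SE 0.13) with overlapping ranges. Dcn, a fibroblast proteoglycan, had 0.31 (SE 0.24) in kidney and -0.08 (SE 0.10) in brain. The brain median of the collagens was -0.53 without WT brain 2 and -0.31 without WT brain 3. For the fibroblast and pericyte markers it was -0.28 without WT brain 2 and -0.09 without WT brain 3.

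Podocyte genes lay lower in KO kidney, the organ where the cell type resides, and most were negative in brain too. In kidney all 10 of 10 had a negative log2 fold change (median -0.62), and 6 were below WT without overlap, against 9.32% of all genes. In brain 8 of the 9 tested were negative (median -0.24, and -0.09 without WT brain 3). In both organs 2 lay below WT without overlap, against 0.911% of all genes. Their summed level was 416 to 482 CPM in WT and 242 to 301 CPM in KO kidney. Nphs1, which encodes nephrin of the slit diaphragm, was at 13.8, 14.3 and 15.3 CPM in WT kidney and 6.95, 7.31 and 6.09 CPM in KO kidney. Its log2 fold change was -1.10 (SE 0.18) with adjusted p = 0.218, so it did not pass. Podxl, a sialomucin made by podocytes and also by endothelium, had -0.67 (SE 0.14) in kidney and -0.53 (SE 0.18) in brain, with all KO below all WT libraries in both. Tubule markers gave smaller medians. The 24 proximal tubule genes had a kidney median of -0.06 with 4 above and 2 below WT, and the 23 genes of the loop of Henle, distal tubule and collecting duct a median of -0.15 with 4 below, beside 9.49% of all genes above and 9.32% below. Of the latter 23 genes, 18 were negative in kidney. Their summed level did not overlap, at 8038 to 9326 CPM in WT and 6342 to 7523 CPM in KO kidney. The proximal tubule sum overlapped, at 50330 to 68141 CPM in WT and 61342 to 67595 CPM in KO kidney. In brain, neuron, astrocyte and oligodendrocyte markers had medians of 0.07, 0.12 and 0.08, with 13 of 18, 10 of 12 and 12 of 15 genes positive. The astrocyte sum was 3827 to 4127 CPM in WT and 4202 to 4517 CPM in KO brain. The oligodendrocyte sum was 6990 to 7577 CPM in WT and 7922 to 8011 CPM in KO brain. Both sums were thus higher in all KO brains, while the neuron sum overlapped.

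Some vessel genes had opposite signs in the organs, though no difference passed the test. Robo4, a guidance receptor of endothelial cells, was at 7.09, 6.17 and 6.87 CPM in WT brain and 3.92, 2.05 and 2.09 CPM in KO brain, and at 21.5, 24.3 and 21.8 CPM in WT kidney and 25.8, 28.0 and 22.3 CPM in KO kidney. Brain KO lay well below WT, whereas kidney KO overlapped WT and lay slightly higher. Its log2 fold change was -1.30 (SE 0.25) in brain and 0.16 (SE 0.15) in kidney, a difference of 1.47 (SE 0.30) with adjusted p = 0.18. Flt1, which encodes another VEGF receptor, had the same arrangement with -0.77 (SE 0.21) in brain and 0.33 (SE 0.22) in kidney. Ehd3, a membrane trafficking gene used as a marker of glomerular endothelium, went the other way, at 37.3 to 49.0 CPM in WT and 24.9 to 30.6 CPM in KO kidney and 62.8 to 74.7 CPM in WT and 78.0 to 84.9 CPM in KO brain. It was below WT in kidney (-0.59, SE 0.15) and above WT in brain (0.25, SE 0.09).

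The 12 genes in each direction with the lowest p of the tissue by genotype term, among those at 1 CPM or more in both organs and clear of WT in at least 1, are given as values, since none passed the test (adjusted p 0.171 to 0.251). All 24 were among the 143 of 16462 genes called by DESeq2. They were also among the 660 of 16777 called by the edgeR test without KO kidney 1. Since the 24 were picked by the p of the same term in these libraries, these calls add no support. Cilium and microtubule genes were among the 12 with the higher value in kidney. Cfap65, a protein of motile cilia, was at 0.546, 1.53 and 1.70 CPM in WT kidney and 2.69, 4.99 and 3.98 CPM in KO kidney, and at 10.5, 8.57 and 9.07 CPM in WT brain and 6.18, 6.40 and 8.01 CPM in KO brain. Ttll3, an enzyme that glycylates the tubulin of cilia, was at 2.36 to 3.50 CPM in WT and 4.55 to 7.43 CPM in KO kidney and 22.5 to 25.7 CPM in WT and 16.2 to 20.6 CPM in KO brain. Eml5, a microtubule-associated protein, had 0.40 (SE 0.14) in kidney and -0.43 (SE 0.11) in brain. For all 3 genes the KO libraries were above WT in kidney and below WT in brain. Col27a1, a fibrillar collagen of cartilage, was at 95.2, 120.2 and 129.6 CPM in WT kidney and 131, 316 and 247 CPM in KO kidney, and at 21.9, 17.0 and 19.9 CPM in WT brain and 14.0, 11.2 and 14.3 CPM in KO brain. It stood apart from the other collagens in kidney, and its kidney value was lowest in KO kidney 1, close to the highest WT library. Aoc2, an amine oxidase, had 1.27 (SE 0.32) and -0.37 (SE 0.17), and Gnrh1, the precursor of gonadotropin-releasing hormone, 1.53 (SE 0.41) and -0.54 (SE 0.26). Cyp2j9, a cytochrome P450, had a kidney value of 1.16 (SE 0.22) and a brain value of -0.12 (SE 0.10) with overlap. Mbd6, a methyl-CpG-binding domain protein, differed through the brain, where it was at 78.8, 76.8 and 82.4 CPM in WT brain and 57.2, 55.8 and 56.4 CPM in KO brain (log2 fold change -0.49, SE 0.08).

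The other 12 had the lower value in kidney, and most of them had a higher CPM in brain than in kidney. Pygm, the muscle glycogen phosphorylase, had the lowest p of the term (2.43e-05 unadjusted, 0.171 adjusted). It was at 7.81, 8.45 and 7.64 CPM in WT kidney and 4.16, 3.39 and 2.92 CPM in KO kidney, and at 39.3, 34.6 and 35.6 CPM in WT brain and 39.9, 35.4 and 40.5 CPM in KO brain. Ryr2, the calcium release channel of heart and neurons, was at 2.18, 2.65 and 1.64 CPM in WT kidney and 0.343, 0.535 and 0.435 CPM in KO kidney, and at 117, 89.4 and 126 CPM in WT brain and 109, 86.6 and 95.2 CPM in KO brain. Its mean effect passed the test (adjusted p = 0.0264, and under 14 of 24 alternatives, lost without any 1 of WT kidney 1 or 2, KO kidney 2 or 3, WT brain 1 and KO brain 2 or 3, without both KO kidney 2 and 3, with the replicate block at adjusted p = 0.215 and with quality weights per group at 0.191), but only the kidney groups were apart, with a log2 fold change of -2.30 (SE 0.46) against -0.19 (SE 0.14) in brain. Ntrk3, the neurotrophin 3 receptor, was at 1.70 to 1.86 CPM in WT and 0.0979 to 0.594 CPM in KO kidney. Ntng2, a netrin-like axon guidance gene, was at 1.73 to 3.70 CPM in WT and 0.124 to 0.686 CPM in KO kidney, Ddn, a protein of dendrites and podocytes, at 6.88 to 8.06 CPM in WT and 1.49 to 3.23 CPM in KO kidney, and Rasd2, a small GTPase, at 4.15 to 7.70 CPM in WT and 1.25 to 2.55 CPM in KO kidney. In brain the ranges of these 4 genes overlapped. Lrrc8c, a subunit of volume-regulated anion channels, was at 11.1, 13.7 and 11.0 CPM in WT kidney and 6.56, 3.92 and 3.73 CPM in KO kidney and had a brain value of 0.03 (SE 0.09). Cd9, a tetraspanin, lay on opposite sides, at 63.6, 56.2 and 72.4 CPM in WT kidney and 48.4, 36.9 and 38.5 CPM in KO kidney, and at 53.9, 48.2 and 54.8 CPM in WT brain and 62.7, 76.5 and 67.4 CPM in KO brain. Sfrp2, a secreted Wnt inhibitor, did so too, with -1.63 (SE 0.33) in kidney and 0.27 (SE 0.16) in brain. The remaining genes were Fam69b (-1.33 in kidney and 0.06 in brain), Wscd2 (-0.67 and 0.18) and Gm11127 (-1.89 and 0.03), and among those higher in kidney Gm49405 (0.56 and -0.53), Syne4 (0.47 and -0.37) and Celf4 (1.59 and 0.02). Neuron markers, at a sum of 7.54 to 11.4 CPM in WT kidney and 7.05 to 10.5 CPM in KO kidney, with Slc17a7, Slc17a6 and Slc32a1 at 0, give the level of neuronal RNA in these kidneys, and its part in the low kidney values was not tested.

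**Figure D3:**
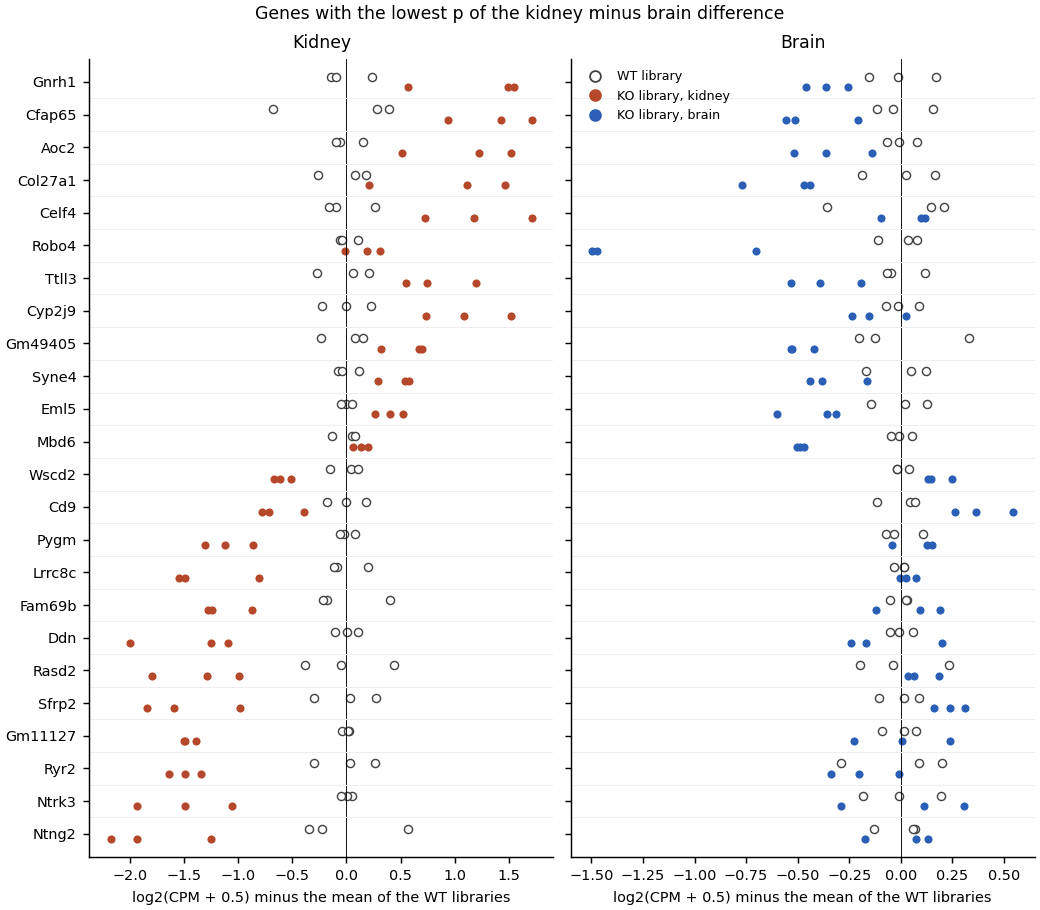
Level of the 12 genes in each direction with the lowest p of the tissue by genotype term in each library, as log2(CPM + 0.5) minus the mean of the WT libraries of the organ; each row is a gene, open circles are WT and filled circles KO libraries, and the x axes of the panels have different ranges. The KO circles of Cfap65, Col27a1 and Gnrh1 lie above WT in kidney and below WT in brain, those of Cd9 and Sfrp2 the reverse, and for Ntng2, Ntrk3 and Ryr2 they lie below WT in kidney and among WT in brain.

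Genes of cholesterol synthesis had a negative median in kidney and a median near 0 in brain. Of 23 genes tested in kidney, 18 had a negative log2 fold change, and of 24 tested in brain 17 had a positive one. Of the 24 genes, 11 lay below WT without overlap in kidney (9.32% of all genes) and 0 in brain (6.66%). The medians were -0.38 in kidney, 0.06 in brain and -0.37 for the difference. Insig1, a sterol-regulated brake on the pathway, was at 63.5, 51.3 and 51.1 CPM in WT kidney and 38.2, 18.6 and 31.0 CPM in KO kidney, and at 88.8, 117 and 104 CPM in WT brain and 125, 105 and 92.8 CPM in KO brain. Fdps, farnesyl diphosphate synthase, had -0.41 (SE 0.16) in kidney and 0.21 (SE 0.13) in brain. The differences were -0.98 (SE 0.30) and -0.61 (SE 0.21), and neither passed (adjusted p = 0.34 and 0.369). Mvd, an earlier enzyme, had 0.10 (SE 0.14) and 0.27 (SE 0.12). From KO kidney 1 alone against the 3 WT kidneys the list median was -0.20.

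Targets of NRF2, the transcription factor of the oxidant and detoxification response, had the same arrangement. Of 22 genes tested in kidney, 19 were negative, and 10 of 24 lay below WT without overlap there (9.32% of all genes), with medians of -0.32 in kidney and 0.06 in brain. Gsta4, a glutathione transferase for lipid aldehydes, was at 39.9, 66.4 and 41.8 CPM in WT kidney and 25.3, 23.9 and 22.5 CPM in KO kidney, and at 33.8, 36.9 and 31.9 CPM in WT brain and 34.9, 37.5 and 36.5 CPM in KO brain. Abcc4, an export pump for organic anions, was at 40.4, 49.4 and 46.2 CPM in WT kidney and 25.4, 22.1 and 20.6 CPM in KO kidney, with overlapping ranges in brain (-0.10, SE 0.15). Tkt, transketolase of the pentose phosphate pathway, was below WT in kidney (-0.34, SE 0.13) and above WT in brain (0.18, SE 0.09). The differences between the organs were -1.13 (SE 0.24), -0.90 (SE 0.22) and -0.52 (SE 0.16), with adjusted p = 0.18, 0.251 and 0.34. Without KO kidney 2 and 3 the kidney median of the list was -0.19. Glycolysis gave a smaller contrast, with medians of -0.04 and 0.15 over 18 enzymes. There Hk1, a hexokinase, had -0.41 (SE 0.12) in kidney and 0.21 (SE 0.11) in brain, and Pgam1, phosphoglycerate mutase, -0.48 (SE 0.21) and 0.33 (SE 0.13). The insulin-like growth factor axis had medians of -0.23 in kidney (17 genes) and -0.01 in brain (15 genes). In kidney 13 were negative, and 4 lay below and 1 above WT without overlap (9.32% and 9.49% of all genes). In this list Igfbp5, a binding protein, was at 469, 527 and 451 CPM in WT kidney and 354, 309 and 322 CPM in KO kidney. Its brain value was 0.15 (SE 0.13), while the receptor gene Igf1r had 0.56 (SE 0.16) in kidney and 0.01 (SE 0.12) in brain.

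**Figure D4:**
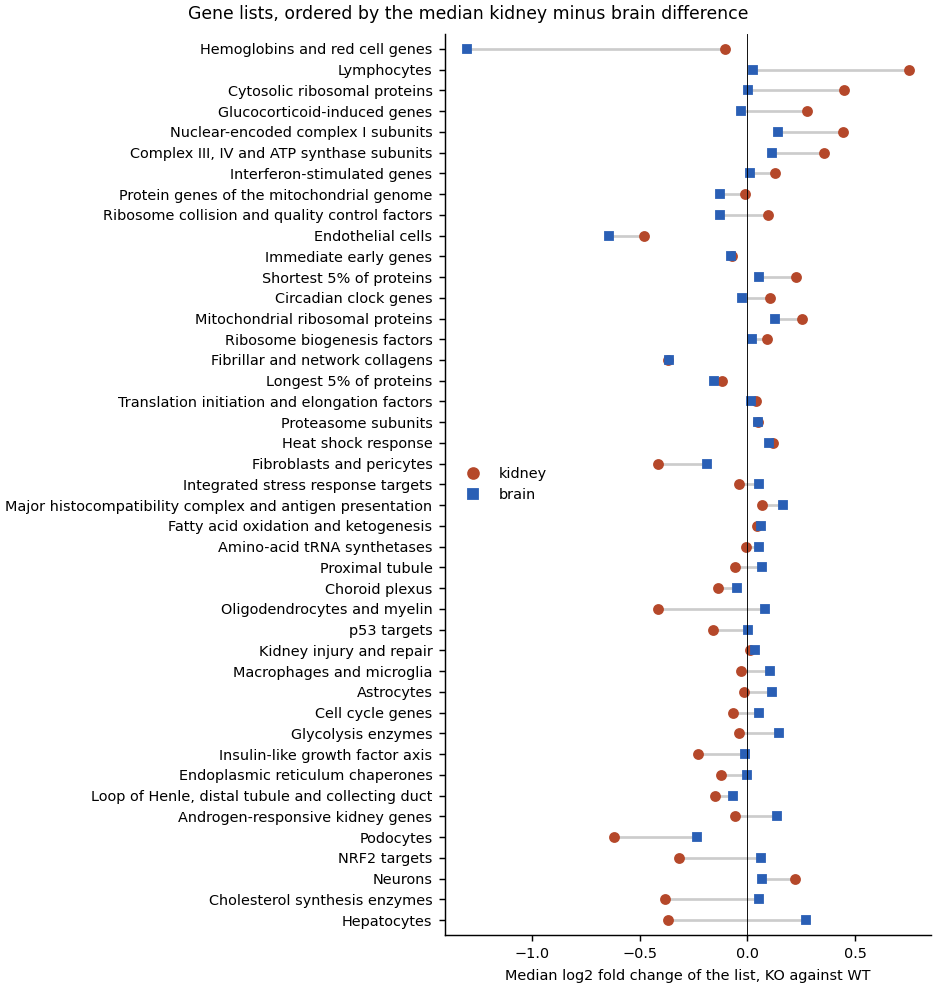
Median log2 fold change of the 43 gene lists with at least 5 genes tested in each organ, KO against WT; each row is a list, each marker the median over its tested genes in 1 organ, and the vertical line marks 0. Cholesterol synthesis enzymes and NRF2 targets lie left of 0 in kidney and near 0 in brain, collagens and endothelial genes left of 0 in both, and ribosomal proteins and respiratory complexes right of 0 in kidney.

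Genes of ribosomal and respiratory proteins lay higher in KO kidney, with the highest levels in KO kidney 2 and 3. Of the 79 cytosolic ribosomal protein genes tested in kidney, Rpl41 included, 68 were positive (median 0.45). Above WT without overlap lay 12 of 81, or 14.8% beside 9.49% of all genes. In brain 41 were positive and 40 negative (median 0.00). Rps14, a protein of the small subunit, was at 250.0, 314 and 181 CPM in WT kidney and 324, 614 and 486 CPM in KO kidney, and at 369, 394 and 312 CPM in WT brain and 282, 430.2 and 353 CPM in KO brain. Its kidney libraries were apart, but KO kidney 1 lay just above the highest WT library. Against the WT mean, the list's median log2 level was 0.59 in KO kidney 2, 0.54 in KO kidney 3, 0.14 in KO kidney 1, and 0.06, 0.26 and -0.31 in WT kidney 1, 2 and 3, so KO kidney 1 lay below WT kidney 2. KO kidney 2 and 3 are those with the high mitochondrial rRNA share and the fewest transcripts with a count, and the part of these values in the result was not tested. Without them the kidney median was 0.11. In brain the list was low in WT brain 3 (-0.23) and KO brain 1 (-0.23).

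Nuclear genes of the respiratory chain followed the ribosomal proteins, with a small positive value in brain as well. Of 38 complex I genes, 19 lay above WT in kidney and 2 in brain (medians 0.44 and 0.14), and of 34 genes of complexes III, IV and the ATP synthase, 18 and 0 (medians 0.35 and 0.11), beside 9.49% and 6.32% of all genes. In brain 36 and 34 of these genes had a positive sign. Ndufs6, a complex I subunit, was at 222, 256 and 186 CPM in WT kidney and 308, 441 and 430.2 CPM in KO kidney. Uqcr10, a complex III subunit, was at 377, 408 and 301 CPM in WT kidney and 491, 762 and 747 CPM in KO kidney. In brain their log2 fold changes were 0.16 (SE 0.15) and 0.17 (SE 0.17), with overlap. Mitochondrial ribosomal proteins had medians of 0.25 and 0.13 and 33 of 78 genes above WT in kidney. Without WT brain 3, the library with pituitary RNA, the brain medians were 0.04 for complex I, 0.01 for the other complexes and 0.04 for mitochondrial ribosomal proteins. The 13 protein genes of the mitochondrial genome gave other values (medians -0.01 and -0.13). Without KO kidney 2 and 3 the kidney medians of complex I and of the other complexes were 0.20 and 0.21.

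Genes induced by glucocorticoids gave a kidney median of 0.28 and a brain median of -0.03 over 22 genes. Klf9, a transcription factor that answers to glucocorticoid and thyroid hormone, was at 323, 356 and 278 CPM in WT kidney and 418, 788 and 839 CPM in KO kidney, and at 242, 294 and 254 CPM in WT brain and 264, 325 and 348 CPM in KO brain. Tmem252, a small membrane protein, was at 147, 192 and 161 CPM in WT kidney and 237, 333 and 295 CPM in KO kidney, with a log2 fold change of 0.78 (SE 0.16) in kidney and -0.06 (SE 0.15) in brain. Both genes lay above WT in all KO kidneys. As a list the direction did not hold in every library, since the kidney median was -0.14 without KO kidney 2 and 3. Tap1, the peptide transporter of antigen presentation, was at 8.03, 9.26 and 7.27 CPM in WT kidney and 13.5, 16.8 and 13.6 CPM in KO kidney and had a brain value of -0.05 (SE 0.18), while its list of 22 genes had medians of 0.07 and 0.17.

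**Figure D5:**
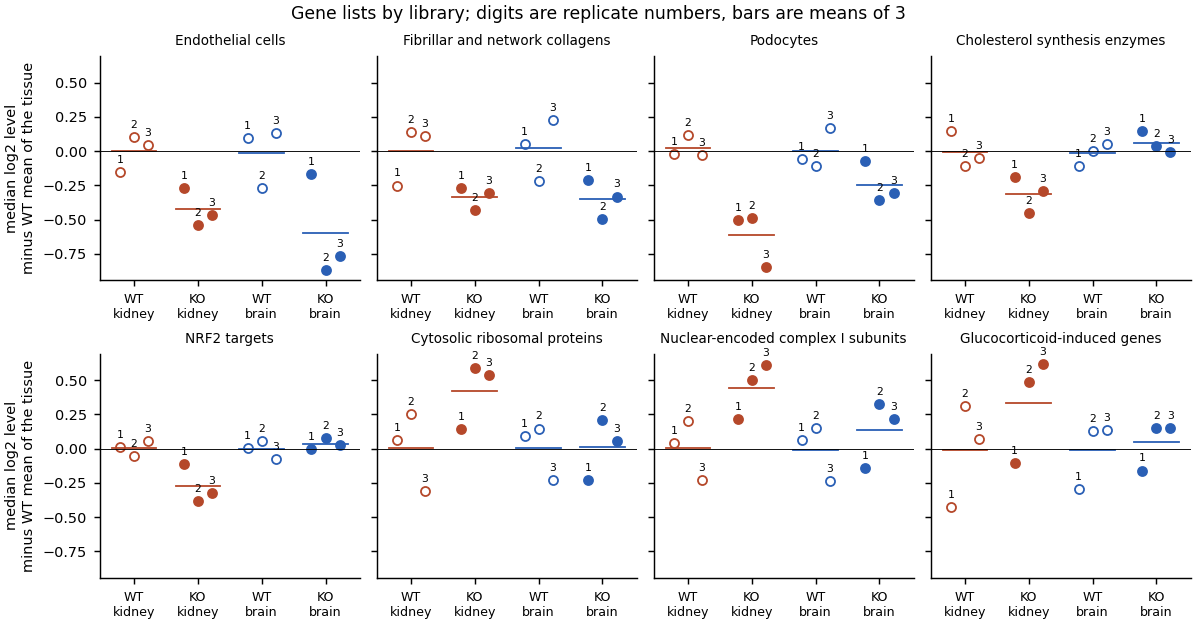
Median log2 level of selected gene lists in each of the 12 libraries against the mean of the 3 WT libraries of the same organ; each point is a library, with open circles for WT, filled circles for KO, the replicate number beside it and a bar at the mean of 3. KO kidney 2 and 3 are the highest kidney libraries for ribosomal proteins (0.59 and 0.54), KO brain 1 lies nearer WT than KO brain 2 and 3 for endothelial genes, and podocyte genes are low in all 3 KO kidneys.

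Lists close to the function of the ribosome and to stress had medians nearer 0. Translation initiation and elongation factors had medians of 0.04 in kidney and 0.02 in brain, with 5 of 44 genes above and 5 below WT in kidney (9.49% and 9.32% of all genes). Eif5, the GTPase activator of start codon selection, was above WT in both organs, at 308, 333 and 270.4 CPM in WT kidney and 357, 620.3 and 578 CPM in KO kidney, and at 227, 229.8 and 214 CPM in WT brain and 282, 278 and 279 CPM in KO brain. Ribosome biogenesis factors had medians of 0.09 and 0.02. Factors of ribosome collision and quality control had 0.10 and -0.13, and 5 of 22 lay below WT in brain (6.66% of all genes) and 0 in kidney (9.32%), a difference that was not tested. Among them Gtpbp2, a GTPase that rescues stalled ribosomes, was at 64.2, 52.5 and 63.8 CPM in WT brain and 42.2, 40.8 and 48.2 CPM in KO brain, with 0.14 (SE 0.15) in kidney, and Gigyf1, a partner of translational repression, had -0.53 (SE 0.13) in brain and 0.10 (SE 0.14) in kidney. The differences did not pass (adjusted p = 0.34 and 0.34). Targets of the integrated stress response had medians of -0.04 and 0.05. In kidney 5 of 33 lay above and 3 below WT without overlap (9.49% and 9.32% of all genes). In that list the amino acid genes Asns, asparagine synthetase, and Slc3a2, the heavy chain of amino acid exchangers, lay below WT in kidney (-0.58, SE 0.25, and -0.57, SE 0.16) and overlapped WT in brain (0.06, SE 0.10, and 0.09, SE 0.10). Further kidney and brain medians were those of p53 targets (-0.16 and 0.00), endoplasmic reticulum chaperones (-0.12 and 0.00), heat shock genes (0.12 and 0.10), proteasome subunits (0.05 and 0.05), tRNA synthetases (-0.01 and 0.05) and interferon-stimulated genes (0.13 and 0.01). The kidney minus brain medians were -0.20 for the chaperones and 0.22 for the interferon-stimulated genes. The heat shock list averaged unlike kidney libraries, with medians against the WT mean of -0.28, 0.32 and 0.32 in KO kidney 1, 2 and 3, and its kidney median was 0.32 without KO kidney 1 and -0.31 without KO kidney 2 and 3.

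Grouped by protein length, genes for long proteins lay lower and, in kidney, genes for short proteins higher. The longest 5% (824 genes) had medians of -0.12 in kidney and -0.16 in brain. KO lay below WT for 173 of them in kidney (21.0%, against 9.32% of all genes) and 113 in brain (13.7%, against 6.66%). In both organs 24 of the 824 lay below WT, a position held by 0.911% of all genes. The shortest 5% (835 genes) had medians of 0.23 and 0.05, with 200 above WT in kidney (24.0%, against 9.49%) and 22 in brain (2.63%, against 6.32%). Myh11, Ryr2, Col27a1 and several collagens belong to the longest group, and ribosomal and respiratory subunits to the shortest, so these groups overlap the lists above. The long group was negative in both organs, while the value of the short group was larger in kidney and its brain median was -0.04 without WT brain 3. The brain median of the long group was -0.07 without that library.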

How the data were processed

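Poly(A)-selected RNA of mouse kidney and brain was sequenced by the authors from directional libraries. Per the labels and methods, reads were trimmed with cutadapt, rRNA reads were removed, the rest were aligned with STAR to the mouse transcriptome and genome (GRCm38, mm10) and counted with featureCounts. The deposited table holds raw counts per transcript, with multimapping reads allowed by the authors, so transcripts of one gene and near-identical copies share reads. Of 142604 transcripts, 141374 matched GENCODE M21, and each of 22484 genes was represented by the coding transcript with the longest protein. The 18 columns of other assays in the table were not used here. The antisense partner of a gene cannot be told apart where the counting ignored strand, which is not given in the sources used here.

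Counts were filtered (filterByExpr) and scaled by TMM within each tissue, and KO was tested against WT in kidney, in brain, for their difference (the tissue by genotype term) and for their mean with the quasi-likelihood test of edgeR 4.0.16 in R 4.3.3, adjusted by Benjamini-Hochberg at 0.05. The kidney and brain values come from fits of the 6 libraries of that tissue and the difference and mean from a fit of all 12. The SE is the log2 fold change divided by the square root of F. The script was tested on simulated data. Named genes are Rpl41, the 12 genes in each direction with the lowest p of the term among those at 1 CPM or more in both organs and clear of WT in at least 1 organ, the 12 in each direction clear of WT on the same side in both with the largest smaller log2 fold change, and from each list up to 2 members with the lowest p of the term and the lowest in each organ. Not all genes that this rule selected are described in the text. The members, the 47 lists and the rule were chosen with earlier results of these data known. Alternatives were DESeq2 1.42.0, limma 3.58.1 voom, other scalings, filters and transcripts, replicate blocks and leaving out libraries. Filters at 1 CPM and quality weights per library were added after seeing the data.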

Additional observations from a re-analysis of the deposited data

Results flagged for a closer look

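Among the 12 genes in each direction with the lowest p of the tissue by genotype term there were 10 for which all KO libraries lay on one side of WT in kidney and on the other side in brain, a position held by 0.802% of all genes tested. The kidney minus brain differences in log2 fold change were 2.07 for Cfap65, 1.31 for Ttll3 and 0.84 for Eml5, genes of cilia and microtubules, 1.58 for Col27a1, 1.65 for Aoc2, 2.08 for Gnrh1 and 1.10 for Gm49405, each higher in kidney. They were -1.03 for Cd9, -0.84 for Wscd2 and -1.90 for Sfrp2, each lower in kidney. The difference was tested with the edgeR interaction term and did not pass for any of the 10 (adjusted p 0.171 to 0.235), while DESeq2 called all 10. Since these genes were picked by the p of the same term, their opposite sides and the DESeq2 calls add no support to it.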

How the results depend on the processing

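The number of genes called depended on the tool and on KO kidney 1. For the tissue by genotype term, DESeq2 called 143 genes (41 higher and 102 lower in kidney) and limma voom with a quality weight per library, chosen after seeing the data, 1333, against 0 with edgeR under the other alternatives that leave out no library. Leaving out 1 library gave 0 to 660 calls for the term (660 without KO kidney 1, 10 without WT kidney 3, 1 without WT kidney 1 or KO brain 1), 1 to 1576 in kidney (1576 without KO kidney 1), 1 to 4 in brain and 1 to 1385 for the mean effect (1385 without KO kidney 1). In kidney the count of 1 became 340 with DESeq2, 2 with no filter, 0 with at least 10 counts in every library (which drops Rpl41), 44 from the fit of 12 libraries and 2653 with the weights. In brain it became 36 with DESeq2, 3 with no filter, 0 with at least 10 counts, 2 from the transcript with the highest count, 2 from the fit of 12 libraries and 280 with the weights. For the mean effect the count of 4 became 516 with DESeq2, 2 with at least 10 counts, 11 with counts summed per gene, 1 without KO kidney 2 and 3 and 3025 with the weights. The count of genes clear of WT on the same side in both organs, 267, ranged from 326 to 996 when 1 library was left out (996 without KO brain 1, 557 without WT brain 2, 502 without KO kidney 1, 418 without WT kidney 2) and was 567 without KO kidney 2 and 3, where fewer libraries make separation easier. The cause of the other shifts was not tested. With TMM over the 12 libraries, no separate kidney and brain fits were made.

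Libraries with the same number were not treated as pairs, which the labels do not settle. Same-numbered kidney and brain libraries of one genotype had deviations correlated at 0.0701 to 0.316 over 12196 genes, over 0.1 for 5 of 6 pairs, and 7 of 12 libraries correlated best with their own number in the other organ, while same-numbered WT and KO libraries of one tissue correlated at -0.370 to 0.435. With the number as a replicate block, calls were 0 for the term, 2 in kidney, 2 in brain and 5 for the mean effect. With kidney and brain of one number as a block, the term had 0 calls, and limma voom with that block as a correlation (0.117) called 3 genes for the mean effect, without Acta2 and Ryr2.

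Of 2944 values of named genes under alternatives that leave out no single library, 2708 kept their direction and side of the threshold, 223 gained a call, 7 lost it and 6 changed sign. The last were Chordc1 (kidney minus brain, -0.23), Cela2a (kidney minus brain, 0.033), Sox4 (kidney minus brain, -0.078) and Ddx3y (kidney, -0.036) without KO kidney 2 and 3, Cd4 (brain, -0.0053) with summed counts, and Pomc (kidney, -0.47) with the weights. With 1 library left out, 1 of 2268 changed sign, Syn1 in kidney (-0.028 to 0.90). Low counts limit the kidney values of brain genes such as Ryr2, Ntrk3 and Ntng2.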

Other observations

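Core clock genes varied among the kidney libraries. Arntl, which encodes the clock activator BMAL, was at 19.7, 17.2 and 1.03 CPM in WT kidney and 4.51, 1.90 and 2.49 CPM in KO kidney, and within 23.8 to 28.4 CPM in the 6 brain libraries. Npas2, its partner, was at 14.0, 11.6 and 0.606 CPM in WT kidney and 2.01, 1.90 and 0.249 CPM in KO kidney. Per3, a gene of the opposite phase, was at 12.2, 10.0 and 44.3 CPM in WT kidney and 23.2, 43.4 and 31.2 CPM in KO kidney. WT kidney 3 thus lay with the KO kidneys for all 3 genes and apart from WT kidney 1 and 2. The hour of collection is not given in the sources used here.

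Markers of other cell types also moved with single libraries or with the genotype. Haemoglobin and red cell genes had a brain median of -1.30, and of -0.49 without WT brain 2. Hba-a1 was at 821, 2455 and 766 CPM in WT brain and 406, 675 and 479 CPM in KO brain, so all KO brains lay below all WT brains. In kidney it was at 135, 163 and 99.8 CPM in WT and 191, 91.2 and 190.5 CPM in KO, with overlap. The pituitary hormone gene Gh was at 1788 CPM in WT brain 3 and at 0.0366 to 9.43 CPM in the other brain libraries. Of lymphocyte genes, the immunoglobulin light chain constant gene Igkc was at 7.27, 13.3 and 9.88 CPM in WT kidney and 21.4, 15.3 and 21.5 CPM in KO kidney, and Jchain, which joins secreted antibodies, at 4.21, 4.27 and 4.79 CPM and 10.3, 6.89 and 8.58 CPM. Both lay above WT in all KO kidneys, and the list median in kidney was 0.75 against 0.20 without KO kidney 1. Of 8 adipocyte genes tested in kidney, 6 had a negative and 2 a positive log2 fold change. KO lay below WT without overlap for 4 (9.32% of all genes). The summed level of the 9 markers overlapped, at 146 to 245 CPM in WT and 157 to 174 CPM in KO kidney. Adipoq, which encodes adiponectin, was at 8.19, 10.8 and 5.39 CPM in WT kidney and 3.43, 4.69 and 3.42 CPM in KO kidney. The list had a kidney median of -0.62, and of -0.27 with at least 10 counts in every library. None of these genes passed the edgeR test in either organ.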
